A study of Mus musculus with 2 samples.

Results

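The collagen genes of cultured dentate gyrus (DG) astrocytes were taken as every gene whose symbol consists of Col, a type number, the letter a and a chain number. The rule found 40 genes among 16302 symbols of the joined tables, of which 11 encode fibrillar chains, 6 basement membrane chains (type IV), 9 FACIT chains and 14 chains of other types. The astrocytes came from adult mice of the strain labelled C57BL/6, either wild type (WT) or lacking β-arrestin 1 (β-arr1 KO). Both cultures grew on Matrigel, itself a basement membrane extract, in medium with 10% fetal bovine serum. A single library was sequenced per genotype from pooled cDNA, so that no spread between mice or cultures is known and no test of genotype was possible. The labels give the genotype of each library and no sex. Expression was measured in FPKM, fragments scaled to the length of the transcript and to the depth of the library, a unit in which different genes of a library can be compared. Arrb1, the gene of β-arrestin 1, was at 7.62 FPKM in WT against 2.72 FPKM in β-arr1 KO (ratio 0.358), lower in the library labelled KO but above 0. Y-linked genes (4, summed) were at 8.44 FPKM in β-arr1 KO and not listed in WT. Xist, a transcript of female cells, was at 39.4 FPKM in WT against 29.7 FPKM in β-arr1 KO, so that both libraries held it.

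Collagens are the main structural proteins of the extracellular matrix. Their chains share stretches in which glycine recurs at regular intervals (Gly-X-Y repeats), and these stretches wind around each other in a triple helix. Fibrillar collagens such as types I, III and V assemble into banded fibrils, whereas type IV collagen forms the sheet-like network of basement membranes. FACIT collagens (fibril-associated collagens with interrupted triple helices) decorate the surface of fibrils. The remaining types include beaded filaments (type VI), short-chain networks (types VIII and X), anchoring fibrils (type VII) and transmembrane collagens. In the brain, collagens are concentrated in the meninges and in the basement membranes of blood vessels and at the glial surface, and astrocytes take part in making the latter.

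Of the 40 collagen genes, 38 were listed in both tables, 1 in WT alone and 1 in β-arr1 KO alone, and a gene that is not listed was taken as 0. Among them 29 reached 1 FPKM in at least one library and were analysed. Dividing the KO value of a gene by its WT value gave a ratio above 3/2 in 4 genes (13.8%) and below 2/3 in 8 genes (27.6%), and the other 17 lay between these limits. Over all 12646 genes analysed in the same way, 9.56% were above 3/2, 8.28% were below 2/3, and 17.8% were past either limit. The share of collagen genes above the upper limit was thus near that of all genes, and the share below the lower limit was larger, with no test of this difference. At 5 FPKM or more, 1 of 20 collagen genes was above and 5 were below, with 6.81% and 5.74% among all genes. The median log2 ratio of the 28 analysed collagen genes listed in both tables was -0.15, with 17 genes lower and 11 higher in β-arr1 KO, and the median of 12171 genes was 0.02.

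Each ratio was given a 95% interval from the estimated number of sequenced fragments (exact Clopper-Pearson). These intervals hold counting error only and say nothing about other mice or cultures. In bulk RNA of this kind, fewer cells of a type and less RNA per cell cannot be told apart. For 23 of the 28 genes the interval did not include 1. At high fragment numbers a small difference is enough for this, as for Col4a1 (ratio 0.953, 0.934 to 0.972). The whole interval was below 2/3 in 6 genes (Col1a1, Col1a2, Col3a1, Col27a1, Col4a3 and Col4a4) and above 3/2 in 1 gene, Col2a1. No share over all genes is given beside these interval counts, so they do not set the collagen genes apart.

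**Figure D1:**
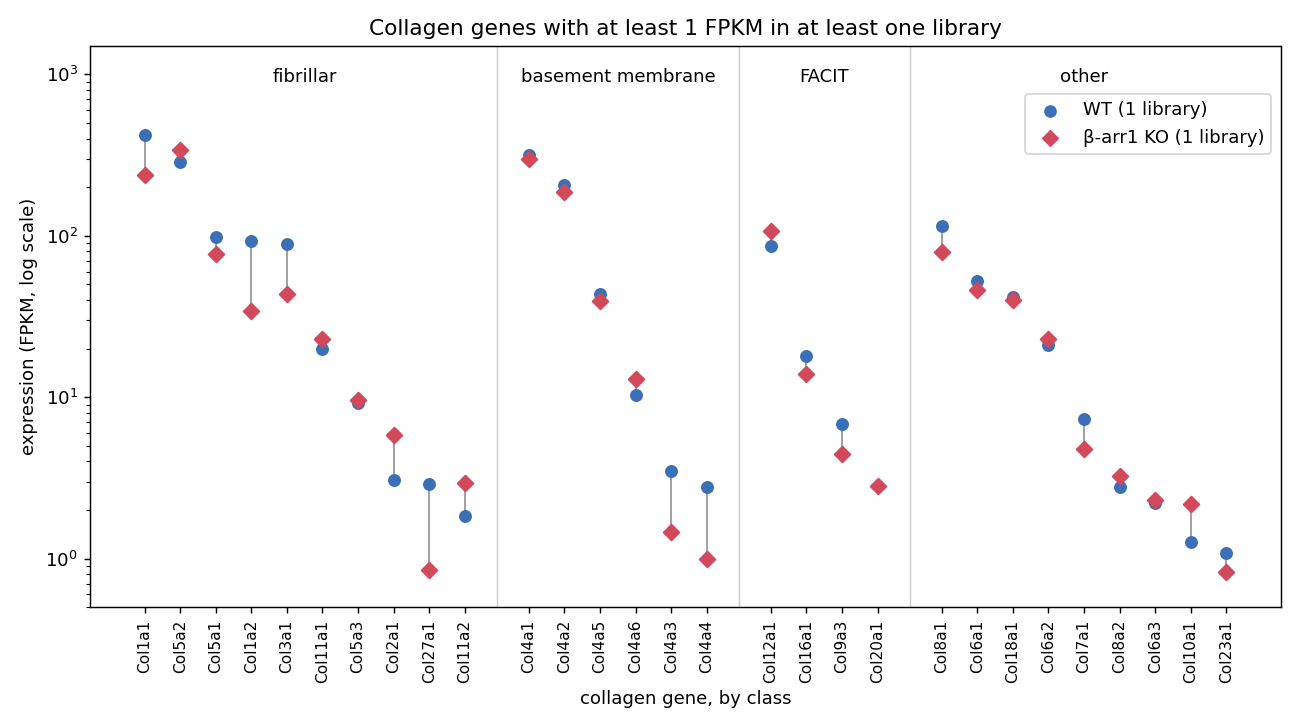
Expression of the 29 analysed collagen genes (FPKM, log scale) in the WT library (circles) and the β-arr1 KO library (diamonds), grouped by class and ordered by the WT value, with 1 library per genotype and no error bars. Levels span from 420 FPKM for Col1a1 in WT to under 1 FPKM, the gaps are wide for Col1a2, Col3a1, Col27a1, Col4a3 and Col4a4, and Col20a1 has no WT symbol because it was not listed there.

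The summed expression of the collagen genes was 1964 FPKM in WT against 1652 FPKM in β-arr1 KO (ratio 0.841). These sums were 0.525% and 0.443% of the FPKM of all genes in the respective library. A few genes held most of the sum, since the 5 highest made up 68.4% of it in WT and 71.1% in β-arr1 KO. The difference between the sums lay mainly in types I and III. Col1a1, Col1a2 and Col3a1, grouped here after their values were seen, summed to 601 FPKM in WT against 315 FPKM in β-arr1 KO (ratio 0.524). This was 91.6% of the net difference, and the other 37 genes summed to 1363 FPKM and 1337 FPKM (ratio 0.981). Among these, rises such as that of Col5a2 (286 FPKM and 342 FPKM) offset falls such as that of Col8a1 (115 FPKM and 79.5 FPKM). By class, fibrillar genes made up 52.0% of the collagen sum in WT and 47.0% in β-arr1 KO.

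**Figure D2:**
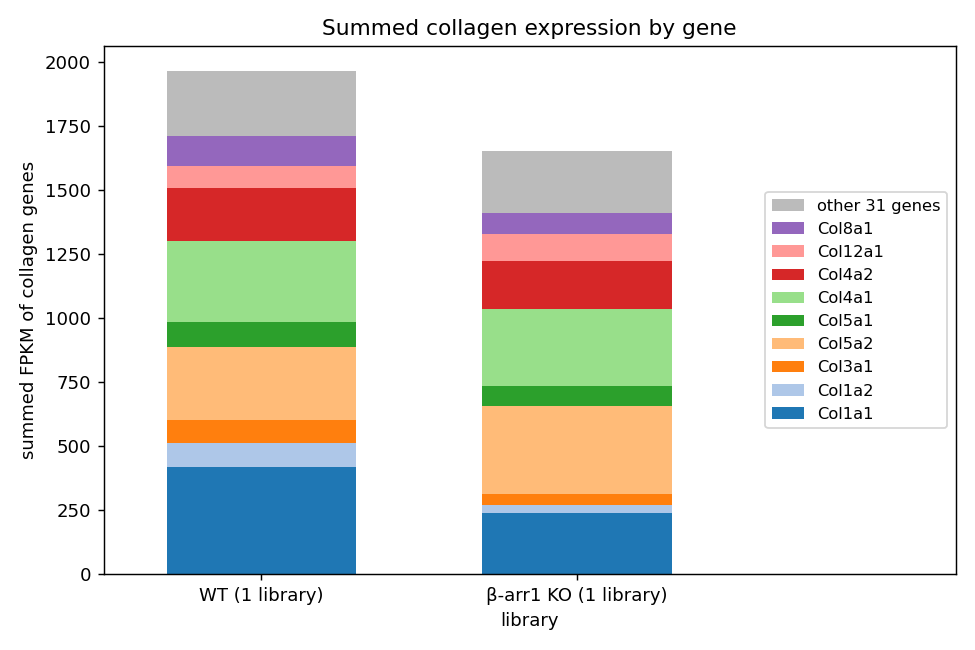
Summed FPKM of the 40 collagen genes in the WT and the β-arr1 KO library, with a segment for each of the 9 genes highest in WT and 1 for the other 31. The bar is 1964 FPKM high in WT and 1652 FPKM high in β-arr1 KO, and the segments of Col1a1, Col1a2 and Col3a1 account for most of the difference.

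The fibrillar class comprised genes that were lower and genes that were higher in β-arr1 KO. Of its 10 analysed genes, 4 were below 2/3 (Col1a1, Col1a2, Col3a1 and Col27a1), 2 were above 3/2 (Col2a1 and Col11a2) and 4 were between the limits. The class summed to 1022 FPKM in WT against 776 FPKM in β-arr1 KO (ratio 0.759, and 0.895 without Col1a1). The median log2 ratio of its genes was -0.15, with 5 genes lower and 5 higher.

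Types I and III, the collagens of most connective tissues, had the largest decreases in FPKM. Col1a1 (NCBI gene 12842, chr11:94797584-94813170 of mm9), which encodes the α1 chain of type I collagen, was at 420 FPKM in WT against 237 FPKM in β-arr1 KO (ratio 0.564, 0.552 to 0.577). It was the highest collagen gene in WT, where it ranked 87 among 15362 genes, and ranked 185 among 15388 genes in β-arr1 KO, behind Col5a2 and Col4a1. Col1a2 (NCBI gene 12843, chr6:4455697-4491543), the gene of the α2 chain that joins it in type I collagen, was at 92.3 FPKM and 34.3 FPKM (ratio 0.371, 0.351 to 0.393). The α1 chain was thus 4.55 times as high as the α2 chain in WT and 6.92 times as high in β-arr1 KO. Col3a1 (NCBI gene 12825, chr1:45368383-45406551), which encodes the single chain of type III collagen, was at 88.3 FPKM and 43.3 FPKM (ratio 0.490, 0.465 to 0.516). All 3 genes were more than 1.5 times as high in WT, and the lowest ratio was that of Col1a2.

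The sequences upstream of Col1a2 and Col3a1 are shown because both genes were below the lower limit and have an entry in the RefSeq promoter table. Each line gives the 250 bases before the RefSeq start, found in NCBIM37 (the assembly of mm9) as the plus strand, which is the strand of both genes. Capitals mark each match to the letters CCAAT and TATAAA and GGGCGG, searched on both strands.
Col1a2 upstream, chr6:4455368-4455617: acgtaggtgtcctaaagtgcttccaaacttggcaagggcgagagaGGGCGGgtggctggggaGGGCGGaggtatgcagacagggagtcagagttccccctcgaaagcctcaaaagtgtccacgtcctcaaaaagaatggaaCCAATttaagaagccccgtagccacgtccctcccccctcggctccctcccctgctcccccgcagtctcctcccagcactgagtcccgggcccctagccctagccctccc
Col3a1 upstream, chr1:45368133-45368382: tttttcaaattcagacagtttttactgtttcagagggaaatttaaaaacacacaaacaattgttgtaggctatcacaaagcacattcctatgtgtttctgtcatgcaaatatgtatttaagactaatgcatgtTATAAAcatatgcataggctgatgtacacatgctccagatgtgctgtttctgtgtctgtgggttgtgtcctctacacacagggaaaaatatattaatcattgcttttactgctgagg
Upstream of Col1a2, CCAAT began 109 bases before the start and GGGCGG began 205 and 188 bases before it. Upstream of Col3a1, TATAAA began 117 bases before the start. The letters are common, as CCAAT was found in 33.8%, TATAAA in 12.3% and GGGCGG in 33.0% of the same stretches of 32544 promoters. The RefSeq start of Col1a2 lay 79 bases from the start of its locus in the WT table, and that of Col3a1 lay at the same base.

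Type V collagen, which is incorporated into type I fibrils and limits their diameter, did not follow this pattern. Col5a2 (α2 chain) was at 286 FPKM in WT against 342 FPKM in β-arr1 KO (ratio 1.20, 1.17 to 1.22), and was the highest collagen gene in β-arr1 KO. Col5a1 (α1 chain) was at 98.1 FPKM and 76.7 FPKM (ratio 0.782, 0.756 to 0.809). Col5a3, a chain found in some type V molecules, was at 9.25 FPKM and 9.61 FPKM (ratio 1.04, 0.919 to 1.17). All 3 lay between the limits, with Col5a2 higher and Col5a1 lower in β-arr1 KO, and the level of Col5a2 relative to Col5a1 was 2.92 in WT and 4.46 in β-arr1 KO. Col5a2 and Col3a1 are neighbours on chromosome 1, with 24624 bases between the ends of their loci, and lie on opposite strands. Their ratios of 1.20 and 0.490 differed in direction.

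Type II and type XI collagens, known from cartilage, were higher in β-arr1 KO. Col2a1 (NCBI gene 12824, chr15:97806033-97835155), the type II chain, was at 3.07 FPKM in WT against 5.87 FPKM in β-arr1 KO (ratio 1.91, 1.56 to 2.36), with an estimated 141 and 277 fragments. Col11a2, a type XI chain, was at 1.83 FPKM and 2.93 FPKM (ratio 1.60, 1.24 to 2.07). Col11a1, the most abundant type XI chain here, was at 19.9 FPKM and 22.9 FPKM (ratio 1.15, 1.07 to 1.24) and lay between the limits. Col2a1 and Col11a2 passed the upper limit from levels under 6 FPKM, and the interval of Col11a2 reached below 3/2. Col27a1 (NCBI gene 373864, chr4:62876446-62996024), a fibrillar chain with a shorter helix that is known from cartilage as well, was at 2.91 FPKM and 0.848 FPKM. Its ratio of 0.291 (0.215 to 0.390) was the lowest of the 28 genes, with an estimated 203 and 60 fragments. Col24a1, its closest relative in the class, stayed under 0.1 FPKM in both libraries.

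**Figure D3:**
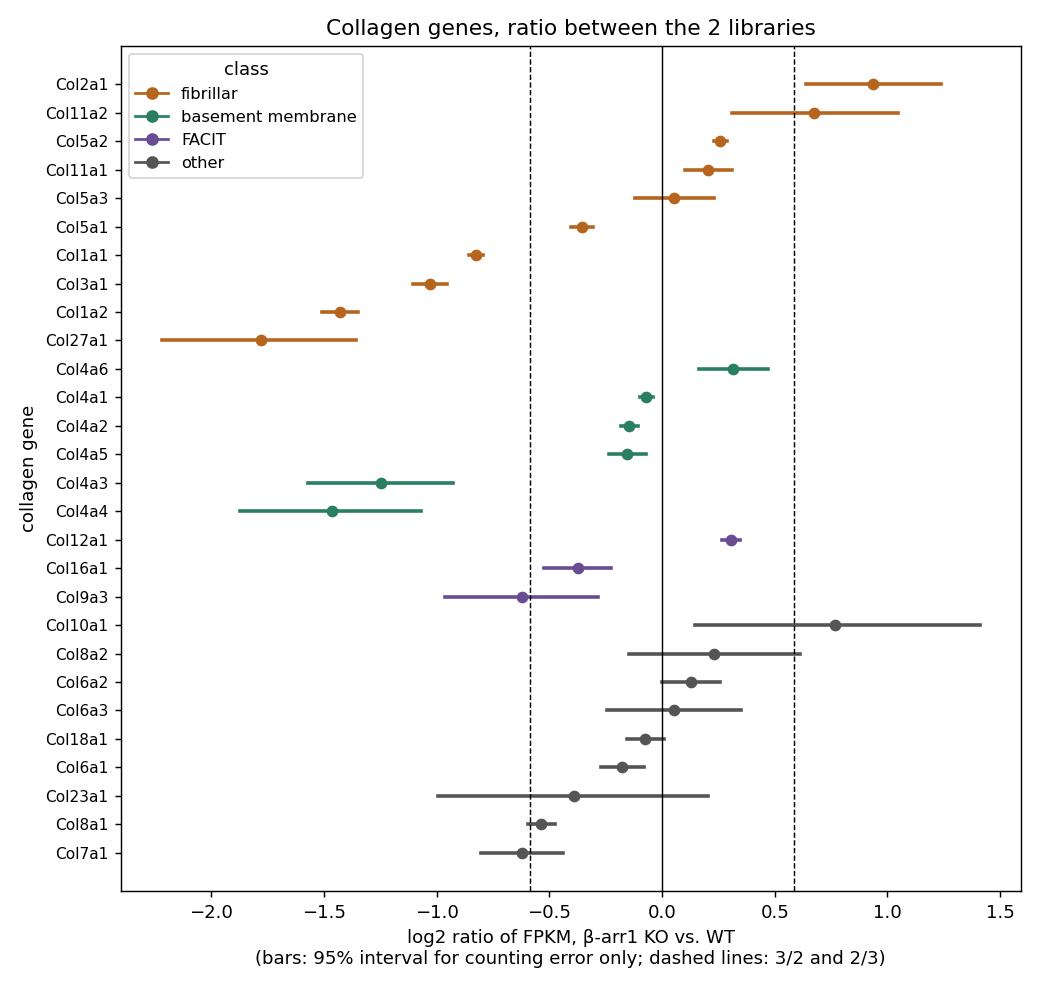
Log2 ratio of FPKM, β-arr1 KO vs. WT, for the 28 analysed collagen genes listed in both tables, coloured by class, with bars for the 95% interval of counting error and dashed lines at 3/2 and 2/3. Fibrillar genes spread from -1.78 (Col27a1) to 0.94 (Col2a1), and Col4a3 and Col4a4 stand apart from the other basement membrane genes.

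The 6 basement membrane genes fell into an abundant set that lay between the limits and a sparse pair that was below the lower limit. Their sum was 583 FPKM in WT against 543 FPKM in β-arr1 KO (ratio 0.931), none was above 3/2, and 2 were below 2/3. Col4a1 and Col4a2 encode the chains of the type IV network found in nearly all basement membranes. Col4a1 was at 315 FPKM in WT against 300 FPKM in β-arr1 KO (ratio 0.953, 0.934 to 0.972), and Col4a2 was at 207 FPKM and 188 FPKM (ratio 0.905, 0.882 to 0.928). The level of Col4a1 relative to Col4a2 was 1.52 and 1.60, so that the balance of this pair was similar in the libraries.

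Col4a3, Col4a4 and Col4a5 encode the chains of a network best known from the kidney glomerulus and the inner ear. Col4a3 (NCBI gene 12828, chr1:82583496-82718634) was at 3.48 FPKM in WT against 1.47 FPKM in β-arr1 KO (ratio 0.422, 0.337 to 0.525). Col4a4 (NCBI gene 12829, chr1:82447298-82583424) was at 2.76 FPKM and 1.00 FPKM (ratio 0.362, 0.273 to 0.476). The intervals of both lay wholly below 2/3, although they rest on an estimated 273 and 118 fragments for Col4a3 and 197 and 73 for Col4a4. Col4a1 was 90.6 times as high as Col4a3 in WT and 205 times as high in β-arr1 KO. Col4a5 (α5 chain) was at 43.9 FPKM and 39.5 FPKM (ratio 0.899, 0.850 to 0.951). Col4a6 (α6 chain), its partner in smooth muscle basement membranes, was at 10.4 FPKM and 12.9 FPKM (ratio 1.25, 1.12 to 1.38). Col4a5 and Col4a6 both lay between the limits, but differed in direction, and their relative level was 4.23 in WT and 3.05 in β-arr1 KO. Both genes are X-linked, and for them as for all other genes a difference in the sexes of the pooled mice and the genotype cannot be told apart.

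The type IV genes lie as pairs whose transcription runs in opposite directions. Where the starts are close, as for Col4a4 and Col4a3 and for Col4a1 and Col4a2, the arrangement is known as a bidirectional promoter. The stretches at the starts of these 2 pairs are shown because these starts are the closest. The members of each pair, Col4a6 and Col4a5 included, lay on the same side of the limits. Both lines give the plus strand of NCBIM37, taken from the RefSeq promoter table, with the gene on the minus strand to the left. In the first line, capitals mark the 71 bases between the start of Col4a4 and the start of Col4a3 in the WT table. In the second line, they mark the 22 bases by which the GENCODE starts of Col4a1 and Col4a2 overlap.
Col4a4 and Col4a3, chr1:82583395-82583525: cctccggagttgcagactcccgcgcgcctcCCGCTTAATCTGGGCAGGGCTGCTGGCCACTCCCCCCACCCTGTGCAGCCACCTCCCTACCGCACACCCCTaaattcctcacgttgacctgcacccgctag
Col4a1 and Col4a2, chr8:11312797-11312834: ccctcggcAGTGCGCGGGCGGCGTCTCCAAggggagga
The pair around the first stretch had ratios of 0.362 (Col4a4) and 0.422 (Col4a3), and the pair around the second had ratios of 0.953 (Col4a1) and 0.905 (Col4a2). The counting intervals overlapped in the first of these pairs and not in the second. The starts of Col4a6 and Col4a5 on the X chromosome were 1308 bases apart in GENCODE, and the ratios of this pair were 1.25 and 0.899.

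FACIT collagens summed to 113 FPKM in WT against 129 FPKM in β-arr1 KO (ratio 1.15), a sum that rested on Col12a1 and was lower in β-arr1 KO without it (ratio 0.848). Of the 9 genes only 4 reached 1 FPKM. Col12a1, which encodes a large chain that binds type I fibrils, was at 86.6 FPKM and 107 FPKM (ratio 1.24, 1.20 to 1.27), between the limits. Col16a1, a chain found at fibrils and near basement membranes, was at 18.1 FPKM and 14.0 FPKM (ratio 0.771, 0.696 to 0.854). Col12a1 and Col16a1 thus differed in direction, neither past a limit. Col9a3, a chain of the type IX collagen of cartilage, was at 6.85 FPKM in WT against 4.46 FPKM in β-arr1 KO (ratio 0.650, 0.513 to 0.821). Its partner chains Col9a1 and Col9a2 stayed under 0.4 FPKM, so that Col9a3 was the main type IX transcript. The end of the Col9a3 locus overlaps the row of Tcfl5 in both tables, and Tcfl5 was at 1.83 FPKM and 1.70 FPKM.

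Col20a1 counted as above the upper limit because it was not listed in WT, where it was taken as 0, and was at 2.82 FPKM in β-arr1 KO. No fold is given for it. Its locus (chr2:180719353-180752245) lies inside the row of the neighbouring gene Arfgap1 in the WT table, which ran from 180701926 to 180752245, whereas the KO row of Arfgap1 ended at 180719292. Arfgap1 itself was at 25.2 FPKM and 22.7 FPKM. Whether its absence from the WT table came from this assignment of the locus was not tested.

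Among the other types, 7 of 9 analysed genes lay between the limits, and their sum was 246 FPKM in WT against 204 FPKM in β-arr1 KO (ratio 0.827, and 0.948 without Col8a1). Type VI collagen forms beaded filaments around cells and needs all its chains for assembly. Col6a1 was at 52.4 FPKM and 46.4 FPKM (ratio 0.885, 0.829 to 0.945), and Col6a2 was at 21.1 FPKM and 23.1 FPKM (ratio 1.09, 1.00 to 1.20). Col6a3 was at 2.22 FPKM and 2.31 FPKM (ratio 1.04, 0.844 to 1.28). The 3 genes lay between the limits, and Col6a1 was 23.6 times as high as Col6a3 in WT and 20.1 times as high in β-arr1 KO. The low level of Col6a3 relative to its partners was therefore found in both libraries.

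Col8a1, the chain of a short-chain network made by vascular and corneal endothelium, was at 115 FPKM in WT against 79.5 FPKM in β-arr1 KO (ratio 0.690, 0.662 to 0.720), just inside the lower limit. Its WT row began at 57302113 on chromosome 16 and spanned the gene Filip1l, whereas its KO row began at 57624369. Filip1l was at 41.5 FPKM and 49.6 FPKM, and the effect of the differing bounds on Col8a1 was not tested. Col8a2, the partner chain, was at 2.78 FPKM and 3.26 FPKM (ratio 1.17, 0.902 to 1.53). The chains of type VIII were thus far apart in level, by 41.5 times in WT and 24.4 times in β-arr1 KO. Col10a1, a related chain known from growth-plate cartilage, was at 1.27 FPKM and 2.17 FPKM (ratio 1.70, 1.11 to 2.66). It passed the upper limit on an estimated 35 and 62 fragments, its interval reached below 3/2, and its locus lies inside the row of Nt5dc1 in both tables (4.10 FPKM and 3.71 FPKM).

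Col7a1, the anchoring fibril chain of skin, was at 7.37 FPKM in WT against 4.79 FPKM in β-arr1 KO (ratio 0.651, 0.573 to 0.738), the only gene of the other types below the lower limit. Its interval crossed 2/3. Col18a1, a basement membrane proteoglycan whose end fragment is endostatin, was at 41.9 FPKM and 39.8 FPKM (ratio 0.950, 0.897 to 1.01). Col23a1, a transmembrane collagen, was at 1.09 FPKM and 0.828 FPKM (ratio 0.762, 0.502 to 1.15). The intervals of Col18a1 and Col23a1 included 1.

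The 11 genes under 1 FPKM in both libraries were Col24a1, Col9a1, Col9a2, Col14a1, Col19a1, Col22a1, Col15a1, Col17a1, Col25a1, Col28a1 and Col6a4. The highest value among them was 0.752 FPKM, of Col15a1 in β-arr1 KO. For 8 of the 10 that were listed in both tables the interval included 1, so that a difference was not detectable at this depth. The other two are named here after their values were seen. Col22a1, a FACIT chain of tissue junctions, was at 0.211 FPKM and 0.411 FPKM (ratio 1.95, 1.06 to 3.72). Col25a1, a transmembrane collagen first described in amyloid plaques, was at 0.0318 FPKM in WT against 0.644 FPKM in β-arr1 KO. The ratio was 20.2 (5.25 to 173) and rests on an estimated 2 fragments in WT and 40 in β-arr1 KO. Col6a4 was listed in WT alone, at 0.0144 FPKM or an estimated 1 fragment.

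The classes also differ in the length of the collagen repeat, which the rule did not use. Gly-X-Y triplets were counted in the longest GENCODE coding sequence of each gene. All 40 genes had an unbroken run of 20 triplets or more, and 63 of 22594 genes with a coding sequence did, of which 43 had symbols that meet the rule. The longest run had a median of 338 triplets in fibrillar genes (216 to 344), of 43.5 in basement membrane genes (39 to 66), of 57 in FACIT genes (32 to 113) and of 50 in the other types (28 to 87). Col27a1 and Col24a1 had the shortest fibrillar runs, 217 and 216 triplets. Col4a1 had a longest run of 40 triplets and 436 triplets in all runs of 5 or more, so that its helix is long but often interrupted. Exons of the longest transcript numbered 51 to 67 in fibrillar genes, and from 3 (Col10a1) to 119 (Col7a1) in the other types.

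**Figure D4:**
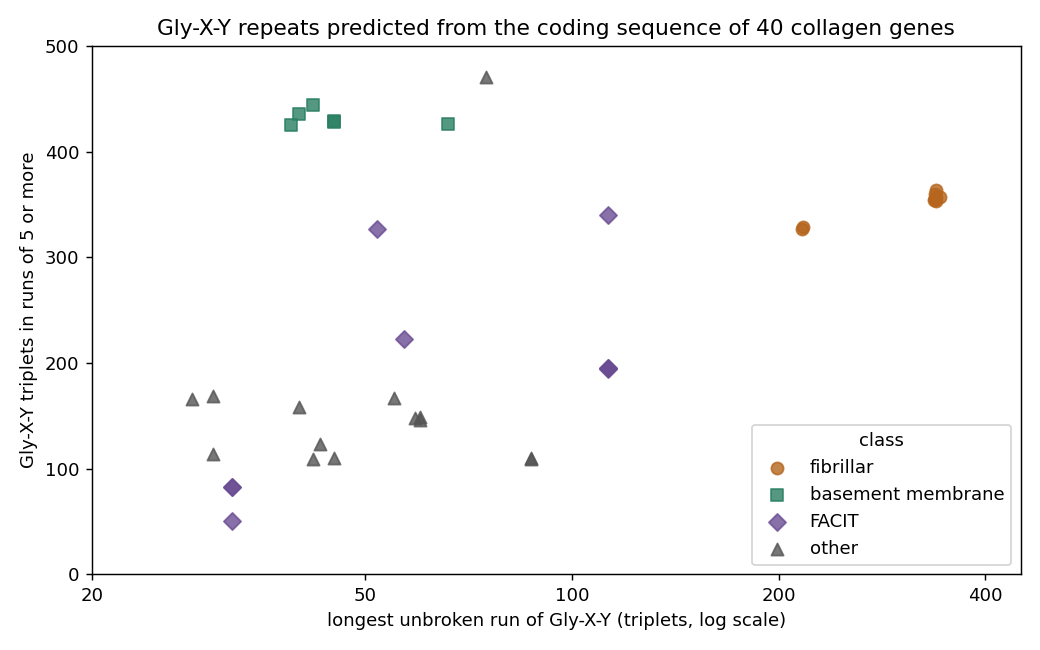
Longest unbroken run of Gly-X-Y triplets (log scale) against the triplets in all runs of 5 or more, computed from the coding sequence of each of the 40 collagen genes and marked by class. Fibrillar genes lie to the right, at 216 to 344 triplets, and basement membrane genes lie at 39 to 66 triplets with 425 to 444 triplets in all runs.

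Collagen chains are hydroxylated, folded, exported, trimmed and cross-linked by other proteins, and bound by receptors at the cell surface. A list of 45 genes for these steps was described beside the collagen genes. Of the 40 that reached 1 FPKM in at least one library, 5 were above 3/2, 3 were below 2/3 and 32 lay between, as compared with 9.56% and 8.28% of all genes. The median log2 ratio of the 39 listed in both tables was -0.12, with 30 genes lower and 9 higher in β-arr1 KO.

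Of the 8 genes past a limit, 4 were among the 7 analysed genes of prolyl hydroxylation, the step that stabilises the helix. Over all genes analysed, 17.8% were past either limit. This step was singled out after its values were seen, and no test was made of it. P4ha1, a catalytic subunit of prolyl 4-hydroxylase, was at 50.9 FPKM in WT against 77.9 FPKM in β-arr1 KO (ratio 1.53, 1.44 to 1.62). P4ha2, the alternative subunit, was at 26.2 FPKM and 15.6 FPKM (ratio 0.598, 0.529 to 0.675), and P4ha3 was at 9.95 FPKM and 17.9 FPKM (ratio 1.79, 1.51 to 2.14). The interval of P4ha1 reached below 3/2 and that of P4ha2 reached above 2/3. The alternative catalytic subunits thus differed in direction, whereas their common partner P4hb, the highest gene of the step, was at 307 FPKM and 296 FPKM (ratio 0.966). Leprel1, a prolyl 3-hydroxylase, was at 8.85 FPKM and 16.3 FPKM (ratio 1.84, 1.58 to 2.15).

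Serpinh1 encodes Hsp47, the chaperone dedicated to collagen, and was at 388 FPKM in WT against 245 FPKM in β-arr1 KO (ratio 0.631, 0.610 to 0.654). Sparc, a matricellular protein that binds collagen and was the highest gene among the chaperones, was at 2188 FPKM and 1857 FPKM (ratio 0.849). All 6 chaperone genes had a ratio under 1, with Serpinh1 alone past the limit. The intervals of Crtap (0.853 to 1.03) and Ppib (0.876 to 1.004) included 1. Over all genes listed in both tables the median log2 ratio was 0.02. Mrc2, an endocytic receptor that takes up collagen for breakdown, was at 43.7 FPKM and 18.1 FPKM (ratio 0.414, 0.384 to 0.446), the lowest ratio of the list. The most abundant receptor gene, Itgb1, which encodes the β1 integrin subunit, was at 1053 FPKM and 1020 FPKM (ratio 0.969).

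In lysyl hydroxylation and export no gene was past a limit, and the highest were Plod2 (82.4 FPKM and 87.5 FPKM, ratio 1.06) and Sec23a (37.4 FPKM and 36.6 FPKM, ratio 0.979). In propeptide removal, the procollagen C-proteinase gene Bmp1 was at 83.7 FPKM in WT against 56.9 FPKM in β-arr1 KO (ratio 0.680, 0.641 to 0.721). The N-proteinase gene Adamts14 was at 6.41 FPKM and 10.2 FPKM (ratio 1.60, 1.38 to 1.85). Bmp1 was just inside the lower limit and Adamts14 just past the upper one. All 4 lysyl oxidase genes listed in both tables had a ratio under 1 and lay between the limits. Loxl2 was the highest of them, at 261 FPKM and 216 FPKM (ratio 0.826). Loxl1 was barely inside the lower limit (ratio 0.667, 0.616 to 0.722), and the interval of Loxl4 (0.651 to 1.14) included 1. Loxl3 was not listed in WT and was at 90.8 FPKM in β-arr1 KO, so that no fold is given. The WT row of its neighbour Aup1 reaches over most of its locus and that of Htra2 over its end. Aup1 was at 95.1 FPKM in WT against 58.7 FPKM in β-arr1 KO, and Htra2, at 22.6 FPKM in WT, was absent from the KO table.

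**Figure D5:**
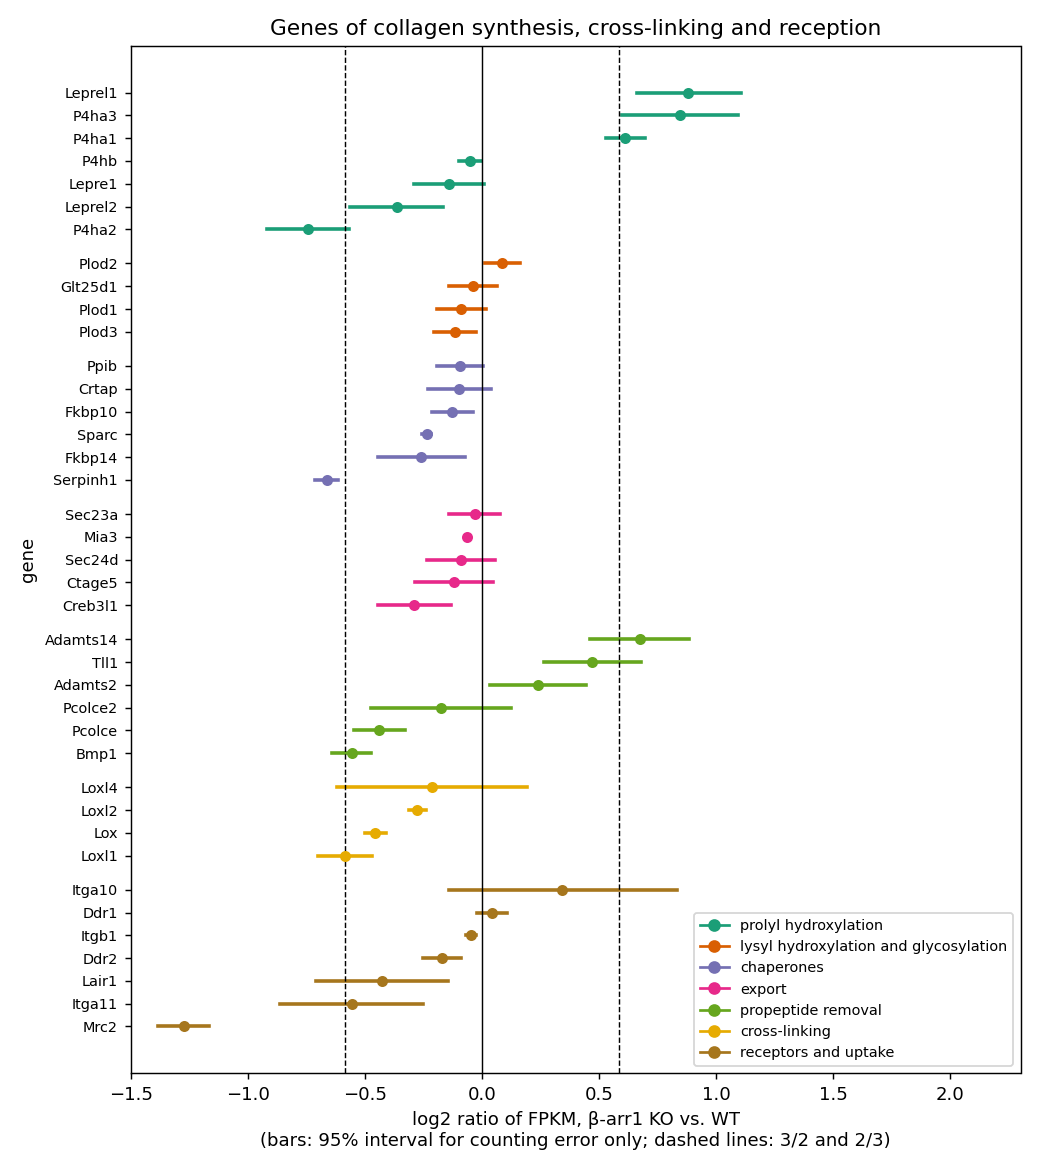
Log2 ratio of FPKM, β-arr1 KO vs. WT, for 39 genes that act on or bind collagens, coloured by step, with bars for the 95% interval of counting error (none could be computed for Mia3) and dashed lines at 3/2 and 2/3. Most genes lie left of 0, Mrc2 lies farthest left at -1.27, and prolyl hydroxylation genes lie past both limits.

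The labelled cell type was checked by marker genes. All 8 astrocyte markers were listed in both libraries and summed to 369 FPKM in WT against 383 FPKM in β-arr1 KO, with Gfap at 189 FPKM and 192 FPKM. Of the 8, 3 were above 3/2 (Aqp4, ratio 1.92, S100b, ratio 1.77, and Slc1a2, ratio 1.58) and none was below 2/3. Glul (0.742) and Gja1 (0.862) were the 2 with a ratio under 1. Over all genes analysed, 9.56% were above 3/2 and 8.28% were below 2/3. The WT row of S100b overlapped that of Dip2a, and the bounds of S100b differed between the libraries. Type I and type III collagens are also made by fibroblasts and leptomeningeal cells, whose 8 markers summed to 47.5 FPKM in WT against 29.8 FPKM in β-arr1 KO. Of the 6 that were analysed, 3 were below 2/3 and 1 was above 3/2. Dcn was at 6.11 FPKM and 0.831 FPKM, Fbln1 at 10.2 FPKM and 4.97 FPKM, Aldh1a2 at 15.4 FPKM and 6.71 FPKM, and Pdgfra at 3.12 FPKM and 6.03 FPKM. Ogn was at 8.27 FPKM and 6.20 FPKM, and Igf2 at 3.74 FPKM and 5.04 FPKM. Lum, at 0.660 FPKM in WT, was absent from the KO table, and Slc6a13 was not listed in WT and at 0.0515 FPKM in β-arr1 KO. Dcn, Fbln1, Aldh1a2 and Ogn were thus lower in β-arr1 KO, as were Col1a1, Col1a2 and Col3a1, whereas Pdgfra and Igf2 were higher. The part of these cells in the values of the fibrillar genes was not tested.

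Markers of pericytes and mural cells, which also make type IV collagen, summed to 5428 FPKM and 5107 FPKM, nearly all from Acta2 (2478 FPKM and 2469 FPKM) and Tagln (2915 FPKM and 2597 FPKM). Of these 8 markers, 5 were analysed and 1 was below 2/3, and Pdgfrb and Kcnj8 were listed in neither library. The locus of Pdgfrb lies inside the row of Csf1r. Endothelial markers summed to 54.1 FPKM and 43.9 FPKM, microglial markers to 229 FPKM and 210 FPKM, oligodendrocyte lineage markers to 25.8 FPKM and 30.9 FPKM, and neuronal markers to 45.2 FPKM and 60.5 FPKM. The part of these cells in the collagen values was not tested.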

How the data were processed

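RNA from cultured DG astrocytes was sequenced as 1 library from WT and 1 from β-arr1 KO mice, each from pooled cDNA. The authors aligned paired reads to mm9 with TopHat 1.4.0 (version per the submitters' processing notes) and deposited Cufflinks FPKM values, 1 per gene. The Cufflinks version and the annotation are not given in the sources used here. Genes at 0 are not rows of the tables. FPKM divides fragments by transcript length and depth, and Cufflinks can merge neighbouring loci into 1 row, which changes the value of both genes. Table starts count from 0, and 1 was added (38.4% of the WT genes matched to GENCODE then had the GENCODE start, and 3.07% before).

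The tables were joined on gene symbol, the highest row of a symbol was kept, and the 12646 genes that reached 1 FPKM in either library were analysed. The KO value was divided by the WT value without a pseudocount, and the ratio was called above 3/2 or below 2/3, which are limits used in the study. With 1 library per genotype no p-value was computed. Mapped fragments (9.38 M in WT, 9.52 M in β-arr1 KO) were estimated from values under 0.15 FPKM, of which 70.7% and 70.8% lay within 5% of a step of 1, 2 or 3 fragments. Fragments per gene, with the longest GENCODE transcript for both libraries, gave the 95% Clopper-Pearson intervals, which cover counting error only and not differences in length or in the assignment of reads. The computation was tested on simulated data. All collagen genes at 1 FPKM or more in at least one library were named. Of the synthesis and receptor genes, those past a limit at 1 FPKM or more in both libraries and the highest of each step were named, besides Loxl3 and genes whose rows overlap those of some named genes. The genes and lists were chosen with earlier results of these data known.

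Promoter sequences came from RefSeq (GRCm38.p6 table, matched to NCBIM37), with an entry for 32 of the 40 collagen genes. Alternatives were other minimum levels, pseudocounts of 0.1 and 1, other scalings, rows of a symbol summed, equal locus bounds and limits of 2 and 1/2. The software was Python 3.11.15 with scipy 1.17.1, pandas 2.3.3, numpy 2.4.6 and, for plots, matplotlib 3.10.9.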

Additional observations from a re-analysis of the deposited data

How the results depend on the processing

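The count of collagen genes above 3/2 was 4 of 29 in the report. It was 1 of 20 with a minimum of 5 FPKM, 8 of 40 with no minimum and 2 of 29 with a pseudocount of 1 FPKM. Among genes with the same locus bounds in both tables it was 2 of 16, and with limits of 2 and 1/2 it was 1 of 29. Without genes that are absent from or overlap another row in either table, it was 2 of 25. That setting was tried only after the data had been seen. The count below 2/3 was 8 of 29 in the report. It was 5 of 20 with a minimum of 5 FPKM and 14 of 40 with no minimum. Among genes with the same bounds it was 5 of 16, and with limits of 2 and 1/2 it was 5 of 29. Shares over all genes are given above only for the minimums of 1 and 5 FPKM. The median log2 ratio of -0.15 was -0.074 among genes with 1 FPKM in both libraries. The ratio of the summed FPKM, 0.841, was 0.831 after scaling to the same median ratio, 0.828 after scaling to the same upper quartile, 0.768 among genes with the same bounds and 0.849 without absent or overlapping rows. In the synthesis and receptor list of 40 analysed genes, the count of 5 above was 3 of 21 among genes with the same bounds. With limits of 2 and 1/2 it was 1 of 40, and the count of 3 below was 1 of 40. After scaling to the same median ratio or to the same upper quartile, the count below was 4 of 40. For the 28 named collagen genes with a ratio, 6 alternatives gave 168 values, of which 165 lay inside the counting interval. The 3 outside were Col27a1 (0.473), Col4a3 (0.551) and Col4a4 (0.532) with a pseudocount of 1 FPKM, all still below 2/3. Most alternatives could move a ratio little, since summing the rows of a symbol left each ratio unchanged and the scaling factors were 0.985 to 1.003. With a pseudocount of 1 FPKM, Col10a1 (1.39), Col11a2 (1.39), Col7a1 (0.692) and Col9a3 (0.695) were no longer past a limit. The bounds were the same in both tables for 16 of the 28 analysed collagen genes listed in both and for 60.3% of all such genes, and the effect of unequal bounds on single genes was not tested. No paired analysis was possible because each genotype has 1 library and no test was run. Depth limits the collagen genes under 1 FPKM in both libraries, whose values rest on at most 40 estimated fragments.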

Other observations

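Some collagen genes carry a symbol that the rule does not take. Emid2, the older symbol of Col26a1, was at 0.165 FPKM in WT against 0.0804 FPKM in β-arr1 KO, under the level at which genes were analysed.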
